A study of Homo sapiens with 4 samples.

Results

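The nuclear genes that encode the proteins of the mitochondrial ribosome were followed as RNA in culture supernatant. They were taken as the protein-coding genes whose symbol is MRPL or MRPS followed by a number and, in some, a letter. The rule found 79 of the 61543 genes of the count table, 49 of the large subunit (MRPL) and 30 of the small subunit (MRPS). These carry 78 symbols, since MRPS5 is listed under 2 gene identifiers (ENSG00000144029 and ENSG00000289685) that share exons, so their reads cannot be assigned with certainty. All 79 passed the filter on low counts.

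The cells were HEK293T, an established human embryonic kidney cell line, and they released EPN24, a protein that assembles into nanocages that leave the cell. In 1 group EPN24 was fused to Cas13d, a CRISPR protein that binds RNA (EPN24-Cas13d, 2 libraries), and in the other EPN24 was used without it (EPN24, 2 libraries). The study asked which cellular RNAs Cas13d binds, as seen from the RNA the nanocages carry out. The labels give no guide RNA, dose or time for either group. Supernatant of both groups was spun and passed through a 0.45 µm filter, and total RNA was taken from 200 µl after synthetic ERCC spike-in RNA had been added. RNA inside nanocages was therefore not separated from other RNA of the supernatant, and more nanocages and more RNA per nanocage cannot be told apart. As in any bulk sample, fewer cells and less RNA per cell cannot be told apart either. Whether the 2 libraries of a group are separate cultures is not in the labels, so p-values cover no more than library-to-library spread, which may be technical.

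Counts assigned to genes came to 5097332 and 4863449 with EPN24-Cas13d, and to 1830860 and 1903492 with EPN24. For each ERCC count there were 56.9 and 59.3 gene counts with Cas13d attached and 4.11 and 3.79 without. Levels below are counts per 1000000 (CPM) after TMM scaling. TMM multiplied the library totals by 0.8203 and 0.8211 in EPN24-Cas13d and by 1.286 and 1.154 in EPN24. A share of the library below means this scaled share and not the plain share of total counts, except for summed shares, which are of all gene counts. A floor of 3 counts equals 0.721 and 0.755 CPM in EPN24-Cas13d and 1.34 and 1.42 CPM in EPN24. Of the 7 markers of HEK293T that were looked at, every one had counts in all 4 libraries, from 2.01 CPM (LIN28B) to 1821 CPM (VIM). The 8 markers of blood, erythroid and liver cells lay between 0 and 29 CPM, and the highest was TF, a liver marker.

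The mitochondrial ribosome translates the few messages of the mitochondrial genome, which encode core subunits of the respiratory chain and of ATP synthase. Its ribosomal RNAs come from mitochondrial DNA, while all of its proteins are made in the cytosol from nuclear genes and imported. Compared with bacterial ribosomes it has less RNA and many added proteins, so its members are of 2 kinds, those with a bacterial counterpart and those specific to mitochondria.

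As a share of the library, these messages did not move together. In the quasi-likelihood test of edgeR, with p-values adjusted by Benjamini-Hochberg over all 20476 genes tested, 24 of the 79 were higher in EPN24-Cas13d, 29 were lower and 26 did not pass the threshold of 0.05. Of all genes tested, 80.9% were called, 32.6% as higher and 48.2% as lower, and among protein-coding genes alone 37.0% were higher and 42.9% lower, so the members' share of higher calls was near the background. The median log2 fold change of EPN24-Cas13d over EPN24 was -0.19 for the members, -0.96 for all genes tested and -0.40 for the protein-coding ones. Single members ranged from -4.49 (MRPS18C) to 3.57 (MRPL49). With total counts as library sizes, the plain share, 21 members were higher and 37 lower, with a median of -0.75. Of all 20476 genes tested, 5559 were then higher and 11161 lower, with a median of -1.53. In 32 members both EPN24-Cas13d libraries lay above both EPN24 libraries and in 35 both lay below, against 36.8% and 54.3% of all genes tested.

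Transcript base composition, which the choice of members did not use, differed between the members that were high and those that were low. Stretches of 90 coding bases that start at the middle codon are printed for 7 members, to show this contrast. They were read from GENCODE release 29 (build GRCh38), 5′ to 3′, with G and C in capitals, and the 7 were chosen after their values were seen. The first 4 were higher in EPN24-Cas13d and the last 3 lower, and MRPL3 is shown as a member that was higher with a GC-poor sequence.
MRPL4: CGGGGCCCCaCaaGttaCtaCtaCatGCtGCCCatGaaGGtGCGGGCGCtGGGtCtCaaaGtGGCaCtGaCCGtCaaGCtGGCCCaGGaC
MRPS34: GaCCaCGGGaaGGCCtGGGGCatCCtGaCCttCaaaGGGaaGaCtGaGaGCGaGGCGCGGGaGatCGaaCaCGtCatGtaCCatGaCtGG
MRPL12: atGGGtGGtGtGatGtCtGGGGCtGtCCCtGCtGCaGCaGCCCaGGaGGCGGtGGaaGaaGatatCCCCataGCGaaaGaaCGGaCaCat
MRPL3: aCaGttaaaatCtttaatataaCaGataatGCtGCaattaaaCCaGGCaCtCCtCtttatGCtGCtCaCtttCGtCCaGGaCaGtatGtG
MRPL22: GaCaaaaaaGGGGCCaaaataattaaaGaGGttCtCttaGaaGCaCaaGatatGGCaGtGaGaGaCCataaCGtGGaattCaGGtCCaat
MRPS36: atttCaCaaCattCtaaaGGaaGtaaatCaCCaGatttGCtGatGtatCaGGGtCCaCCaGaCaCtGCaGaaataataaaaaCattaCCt
MRPS18C: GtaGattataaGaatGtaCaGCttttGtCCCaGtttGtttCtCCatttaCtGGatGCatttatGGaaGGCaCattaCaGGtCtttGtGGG
The share of G and C in these stretches was 62.2% in MRPL4, 60% in MRPS34 and 57.8% in MRPL12. It was 37.8% in MRPL3, 40.0% in MRPL22, 35.6% in MRPS36 and 38.9% in MRPS18C.

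Among the large subunit messages, 14 of 49 were higher, 19 were lower and 16 did not pass, with a median log2 fold change of -0.39. The shares over all genes tested were 32.6% higher and 48.2% lower. MRPL49 (ENSG00000149792, chr11:65122183-65127371), a protein found only in mitochondrial ribosomes, read 295 and 303 CPM in EPN24-Cas13d and 30.2 and 19.6 CPM in EPN24. That is 299 ± 5.60 against 24.9 ± 7.45 CPM (SD, n = 2 each), a log2 fold change of 3.57 (SE 0.18, edgeR adjusted p = 1.89e-10). Both EPN24-Cas13d libraries stood far above both EPN24 libraries, though the rule that named MRPL49 asked for groups that do not overlap. MRPL4 (chr19:10251901-10260055), whose bacterial counterpart lines the tunnel through which the new protein leaves, read 168 and 182 CPM against 16.5 and 25.6 CPM (log2 fold change 3.06, edgeR adjusted p = 4.17e-09). MRPL38 (chr17:75898644-75905093), specific to mitochondria, read 79.3 and 91.7 CPM against 9.59 and 13.5 CPM (log2 fold change 2.89, edgeR adjusted p = 8.59e-08). With the GC trend removed MRPL38 did not pass (0.52, edgeR adjusted p = 0.0933), while MRPL49 (2.94) and MRPL4 (0.75) stayed higher. In the annotation, 41.1% of the exon bases of MRPL38 also belong to another gene on its strand and 21.3% of those of MRPL4 to genes on the opposite strand, and reads from such genes were not resolved.

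MRPL37 (chr1:54184041-54225464), a further mitochondria-specific protein, had the most counts of all members in each of the 4 libraries. It read 323 and 334 CPM in EPN24-Cas13d and 61.2 and 69.9 CPM in EPN24 (log2 fold change 2.32, SE 0.13, edgeR adjusted p = 9.49e-10). Per kb of its messenger RNA, it was also the highest member in every library, at 218 and 225 CPM per kb with EPN24-Cas13d, against 41.3 and 47.1 for EPN24.

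The 3 proteins of the stalk, the arm of the large subunit that recruits translation factors, were called higher as a share of the library. For MRPL11 and MRPL12 this did not hold under every setting. With the GC trend removed MRPL12 lost its call (0.03, edgeR adjusted p = 0.912), while MRPL11 kept it (0.70, edgeR adjusted p = 0.04). MRPL12, the stalk protein itself, read 97.5 and 106 CPM against 15.6 and 22.5 CPM (log2 fold change 2.41, SE 0.22, edgeR adjusted p = 1.96e-07). MRPL10, which anchors it, read 123 and 115 CPM against 19.6 and 28.4 CPM (log2 fold change 2.31, edgeR adjusted p = 1.45e-07). MRPL11, at the base of the stalk, read 29.9 and 34.7 CPM against 14 and 21.3 CPM, a smaller difference (log2 fold change 0.86, edgeR adjusted p = 0.012). The call of MRPL11 was lost when EPN24-Cas13d replicate 2 or EPN24 replicate 1 was left out, with log2 fold changes of 0.81 and 0.46 and edgeR adjusted p of 0.101 and 0.133. It was also lost with the stricter filter of 10 counts and 10 CPM (0.00), background subtracted (0.09), total counts (0.30), counts halved (0.49) and the DESeq2 Wald test (0.84, adjusted p = 0.0973). Of the exon bases of MRPL12, 69.5% also belong to a second annotated gene on the same strand (ENSG00000262660), so counts of the pair may have been divided between them, while MRPL10 shares no exon base with another gene.

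The 5 proteins around the exit of the polypeptide tunnel differed among themselves. MRPL23 was higher, at 77.4 and 74.5 CPM against 29.9 and 23.2 CPM (log2 fold change 1.51, edgeR adjusted p = 1.79e-05). With the GC trend removed MRPL23 was called lower (-1.09, edgeR adjusted p = 0.00061). MRPL22 was lower, at 2.40 and 1.51 CPM against 17.4 and 15.1 CPM (log2 fold change -3.03, edgeR adjusted p = 0.000118), and so was MRPL47 at -3.48, from 6 counts against 38. Neither reached the filter level of 2.96 CPM in EPN24-Cas13d, and both entered the test through EPN24, where they are high. Without EPN24 replicate 1 the call of MRPL47 was lost (-2.75, edgeR adjusted p = 0.11), and with the GC trend removed neither passed (-1.19 for MRPL22 and -1.17 for MRPL47). MRPL45, which ties the ribosome to the inner membrane, read 18.3 and 18.1 CPM against 13.4 and 9.47 CPM and did not pass (log2 fold change 0.67, edgeR adjusted p = 0.0839). It was called higher with the GC trend removed (1.28, edgeR adjusted p = 0.00439), with the length trend removed (1.27) and with no filter (1.03). MRPL24 did not pass with TMM either, at a log2 fold change of 0.28, but was called higher with the length trend removed (0.89).

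Other large subunit messages were lower in EPN24-Cas13d, some of them at a few counts. Of those below, MRPL13, MRPL44, MRPL18 and MRPL39 did not reach the filter level of 2.96 CPM in both EPN24-Cas13d libraries. They entered the test through EPN24, where they are high. MRPL13, the counterpart of a bacterial protein of early subunit assembly, had 1.44 and 0.503 CPM in EPN24-Cas13d and 22.3 and 17.0 CPM in EPN24. This rests on 8 counts against 86, a ratio of -4.33 in CPM on the log2 scale with a 95% interval from -5.59 to -3.29 for counting error only, and the fitted log2 fold change was -4.27 (edgeR adjusted p = 1.18e-05). MRPL44, which resembles an RNA-cleaving enzyme, had 1.92 and 1.01 CPM against 19.0 and 20.8 CPM (log2 fold change -3.71, edgeR adjusted p = 1.58e-05). Both EPN24-Cas13d libraries were below both EPN24 libraries in each of these genes, but the rule that named them required this, so it adds no support. MRPL18, whose bacterial counterpart binds the small ribosomal RNA of the large subunit, had 4.81 and 2.52 CPM against 28.5 and 28.6 CPM (log2 fold change -2.94, edgeR adjusted p = 1.21e-05). MRPL39 was also lower, at 4.33 and 2.01 CPM against 16.9 and 18 CPM (log2 fold change -2.44, edgeR adjusted p = 0.000393). MRPL42, 1 of the 5 members with the most counts in EPN24, read 12.7 and 19.6 CPM against 41.9 and 37.6 CPM (log2 fold change -1.30, edgeR adjusted p = 0.000699).

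Of the 30 small subunit messages, 10 were higher, 10 were lower and 10 did not pass, with a median of -0.15. The shares over all genes tested were 32.6% higher and 48.2% lower. MRPS34 (ENSG00000074071, chr16:1771890-1773150), a mitochondria-specific protein needed for a stable small subunit, read 136 and 134 CPM in EPN24-Cas13d and 15.4 and 19.9 CPM in EPN24. The means were 135 ± 1.62 and 17.6 ± 3.18 CPM (SD, n = 2 each), with a log2 fold change of 2.95 (SE 0.20, edgeR adjusted p = 7.08e-09). MRPS26, specific to mitochondria, read 91.6 and 114 CPM against 19.2 and 22.7 CPM (log2 fold change 2.29, edgeR adjusted p = 2.76e-07). MRPS26 shares no exon base with another gene, whereas 31.2% of the exon bases of MRPS34 are also covered by EME2 on the opposite strand. MRPS24, a counterpart of a bacterial protein at the messenger RNA entry, read 33.2 and 38.9 CPM against 5.35 and 7.10 CPM (log2 fold change 2.53, edgeR adjusted p = 8.62e-06). It shares 23.2% of its exon bases with the read-through gene URGCP-MRPS24. MRPS12, whose bacterial counterpart sits at the decoding centre, read 36.5 and 28.2 CPM against 9.81 and 6.63 CPM (log2 fold change 1.97, edgeR adjusted p = 0.000115). With the GC trend removed, MRPS26 (0.06, edgeR adjusted p = 0.817) and MRPS12 (0.49, edgeR adjusted p = 0.215) did not pass. MRPS34 (0.53) and MRPS24 (1.07) then stayed higher. With TMM alone, MRPS25 (log2 fold change 2.05) and MRPS2 (1.31) were higher as well. With the GC trend removed MRPS25 stayed higher (2.58), while MRPS2 was called lower (-0.64, edgeR adjusted p = 0.00821). The MRPS2 call was also lost with background subtracted (0.44, edgeR adjusted p = 0.0974). No library of EPN24 reached the level of either EPN24-Cas13d library in any of these messages. For all of them but MRPS2 the rule that named them required this, so it adds no support.

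The lower small subunit messages included some at a few counts. Of these, MRPS21 and MRPS36 did not reach the filter level of 2.96 CPM in both EPN24-Cas13d libraries and entered the test through EPN24. MRPS21, the counterpart of a small bacterial ribosomal protein, read 2.40 and 2.52 CPM against 25.9 and 18 CPM (log2 fold change -3.14, edgeR adjusted p = 2.16e-05). MRPS36 had 0 and 1.01 CPM in EPN24-Cas13d, from 4 counts, and 9.81 and 5.68 CPM in EPN24, from 34 counts (log2 fold change -3.87, edgeR adjusted p = 0.00214). The protein of MRPS36 is now known as a subunit of the oxoglutarate dehydrogenase complex rather than of the ribosome. Smaller differences were seen in MRPS23 (log2 fold change -1.26), MRPS22 (-1.10) and MRPS15 (-0.74, edgeR adjusted p = 0.0493), and each of these 3 calls was lost when a single library was left out, at adjusted p of 0.0882 for MRPS23 without EPN24-Cas13d replicate 2 and 0.0758 for MRPS22 without EPN24-Cas13d replicate 1. MRPS15 lost it without EPN24-Cas13d replicate 1, EPN24-Cas13d replicate 2 or EPN24 replicate 1, and MRPS36 lost it without EPN24 replicate 1 (log2 fold change -3.56, adjusted p = 0.0659).

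Of the 3 S18 proteins, relatives of a single bacterial protein, 1 was called higher, 1 lower and 1 did not pass. Differences among the 3 were not tested, and with the GC trend removed none of the 3 passed in edgeR (MRPS18A -0.42, MRPS18B -0.07, MRPS18C -2.22, adjusted p = 0.246, 0.803 and 0.0652). MRPS18C, which holds the bacterial place in the small subunit, had 0 and 0.755 CPM in EPN24-Cas13d and 10.7 and 7.34 CPM in EPN24. The 3 counts against 40 give a log2 ratio of -4.64, with a 95% interval from -6.98 to -2.99 for counting error only, and the edgeR adjusted p was 0.000617. MRPS18C did not reach the filter level of 2.96 CPM in either EPN24-Cas13d library and entered the test through EPN24, where it is high. MRPS18B, a mitochondria-specific protein of the small subunit, read 33.2 and 32.7 CPM against 25.9 and 21.3 CPM and did not pass (log2 fold change 0.48, edgeR adjusted p = 0.0891). MRPS18A, which sits in the large subunit despite its symbol, read 31.9 and 29.8 CPM against 11.4 and 21.8 CPM (log2 fold change 0.89, edgeR adjusted p = 0.0164). The MRPS18A call was lost without EPN24-Cas13d replicate 1 (adjusted p = 0.0737) or EPN24 replicate 1 (log2 fold change 0.36, adjusted p = 0.225). It was also lost with the stricter filter (0.03), background subtracted (0.04), total counts (0.33), counts halved (0.49) and the DESeq2 Wald test (0.86, adjusted p = 0.107), and 50.9% of its exon bases are also covered by RSPH9 on the opposite strand. MRPS30, the other large subunit protein with a small subunit symbol, read 7.69 and 7.05 CPM against 11.6 and 16.1 CPM and did not pass (log2 fold change -0.90). Counting both with the large subunit gave 15 of 51 higher and 19 lower there and 9 of 28 higher and 10 lower in the small subunit, with medians of -0.39 and -0.15.

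**Figure D1:**
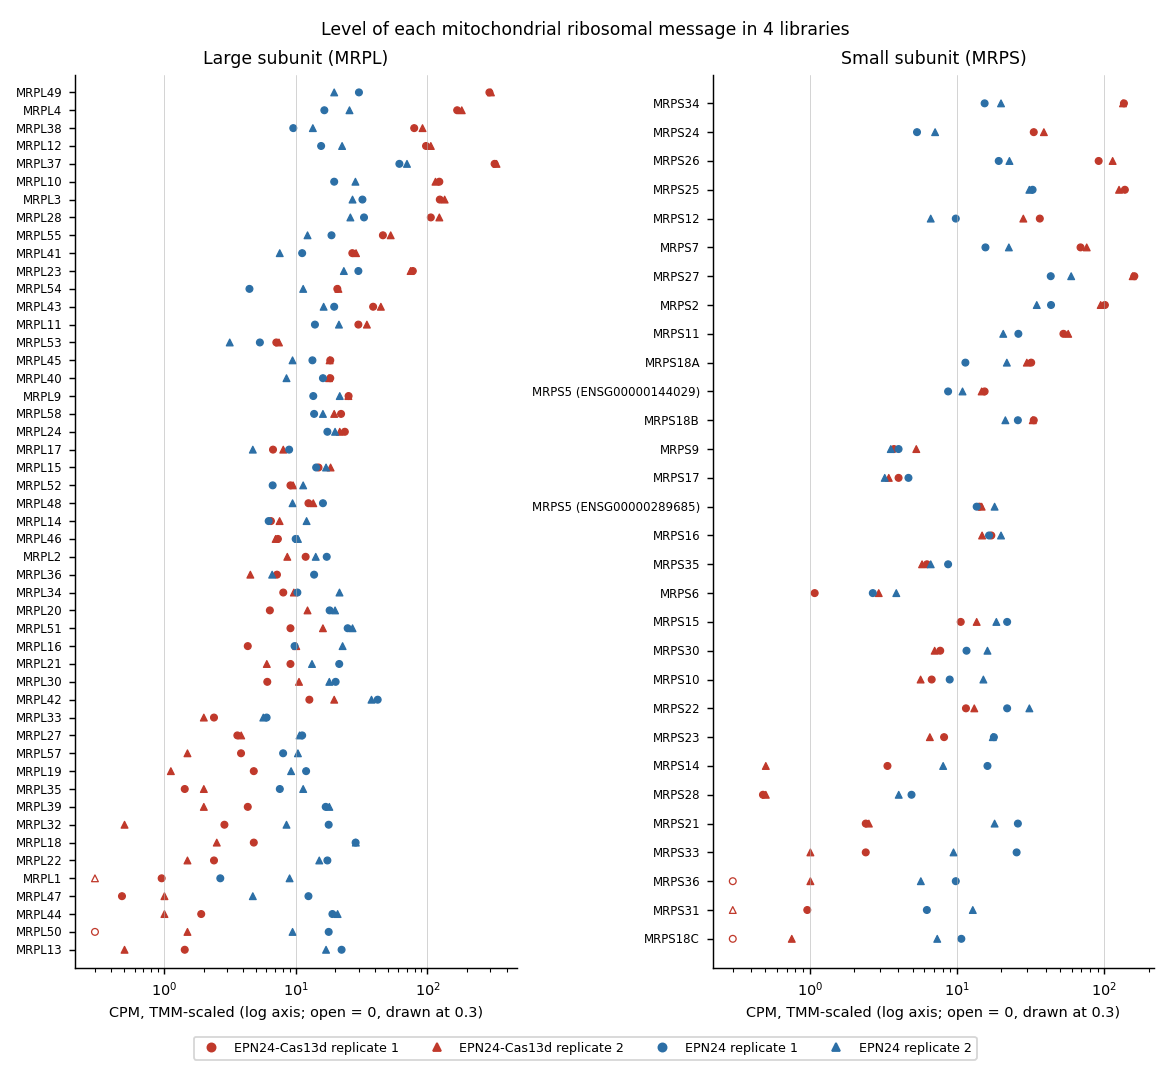
Level of each of the 79 messages in each of the 4 libraries, in CPM on a log axis, with large subunit members in the left panel and small subunit members in the right, ordered by log2 fold change. Red marks EPN24-Cas13d, blue marks EPN24, circles replicate 1, triangles replicate 2, and open symbols values of 0 drawn at 0.3. The red symbols spread over a wider range of levels than the blue ones, and lie to their right at the top (MRPL49 at 295 and 303 against 30.2 and 19.6 CPM) and to their left at the bottom.

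The 26 messages that did not pass were not shown to be equal between the groups. In the large subunit they were MRPL2, MRPL9, MRPL14, MRPL15, MRPL17, MRPL24, MRPL33, MRPL34, MRPL36, MRPL40, MRPL45, MRPL46, MRPL48, MRPL52, MRPL53 and MRPL58. Their log2 fold changes ran from -1.42 (MRPL33, edgeR adjusted p = 0.065) to 0.76 (MRPL53, edgeR adjusted p = 0.214). MRPL58, a structural subunit related to release factors that can free stalled ribosomes, read 22.1 and 19.6 CPM against 13.8 and 16.1 CPM (log2 fold change 0.48). In the small subunit they were MRPS6, MRPS9, MRPS10, MRPS16, MRPS17, MRPS18B, MRPS30, MRPS35 and both MRPS5 entries, from -0.96 (MRPS10) to 0.60 (MRPS5, ENSG00000144029). The other MRPS5 entry was at -0.12.

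Members with a bacterial counterpart and those specific to mitochondria overlapped widely. Of the 47 with a counterpart, 13 were higher and 18 lower (median -0.60), and of the 32 specific to mitochondria 11 were higher and 11 lower (median 0.27). The shares over all genes tested were 32.6% higher and 48.2% lower. The 47 include both MRPS5 entries, and the 32 include MRPS36, whose protein is now placed outside the ribosome. In the large subunit the medians were -0.82 over 30 members with a counterpart and 0.48 over 21 specific ones. The latter was -0.41 with the GC trend removed, -0.39 with background subtracted, -0.34 with the stricter filter and -0.09 with total counts. In the small subunit the medians were -0.12 over 17 and -0.37 over 11. These medians were not tested against each other.

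The members spread further apart in EPN24-Cas13d than in EPN24. Per kb of messenger RNA, the upper quartile of 78 members was 13.5 and 14.7 times the lower quartile in the EPN24-Cas13d libraries and 2.59 and 3.18 times in the EPN24 libraries. The median member was at 7.82 and 8.56 CPM per kb in EPN24-Cas13d and at 10.2 and 10.1 in EPN24. The 5 members with the most counts held 38.2% and 37.8% of all member counts in EPN24-Cas13d, whereas in EPN24 they held 16.9% and 17.6%. Across all tested protein-coding genes the same quartile ratio was 38.6 and 38.8 in EPN24-Cas13d and 3.21 and 3.39 in EPN24, so the wider spread is not particular to these messages. The balance of the subunits differed little: large subunit messages made up 64.8% and 65.9% of member counts with EPN24-Cas13d, against 63.1% and 62.5% for EPN24.

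Summed, the 79 messages took 0.236% ± 0.00603 of gene counts in EPN24-Cas13d and 0.155% ± 0.0105 in EPN24 (SD, n = 2 each), a ratio of 1.53. The ratio was 1.59 for the large subunit (0.154% ± 0.00592 against 0.0970% ± 0.00730) and 1.42 for the small subunit (0.0817% ± 0.000119 against 0.0575% ± 0.00321). No EPN24 library reached either EPN24-Cas13d library in these sums, but with 2 libraries a group an exact permutation test cannot fall below the threshold and none was run. MRPL37, MRPL49, MRPL4 and MRPS27, the 4 members with the most counts in both EPN24-Cas13d libraries, were all called higher.

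Measured against the spike-in, which gives RNA per volume of supernatant, no member was lower. With ERCC totals as library sizes, edgeR called 61 of the 79 higher, 0 lower and 18 not passing, against 58.4% higher and 2.33% lower of all genes tested. The median log2 fold change was 3.18 (2.98 in the large and 3.21 in the small subunit), and the median of all genes tested moved from -0.96 to 2.38. Summed member counts per 1000 ERCC counts were 132 and 142 in EPN24-Cas13d and 6.66 and 5.57 in EPN24, a ratio of 22.4. MRPL49 reached a log2 fold change of 6.92 on this scale. The 24 messages that were higher as a share and the 26 that did not pass were all higher per ERCC RNA. Of the 29 that were lower as a share, 11 were higher per ERCC RNA and 18 did not pass. MRPL42, for example, moved from -1.30 to 2.05, while MRPS18C was at -1.26 and MRPL13 at -0.98 with adjusted p of 0.369 and 0.24. By the authors' deposited table, higher members numbered 58, lower ones 0 and those past no adjusted p of 0.05 came to 21, beside 30.5% higher and 0.201% lower of the 39794 genes with an adjusted p there. Its log2 fold change was 6.87 for MRPL49 and -1.32 for MRPS18C.

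**Figure D2:**
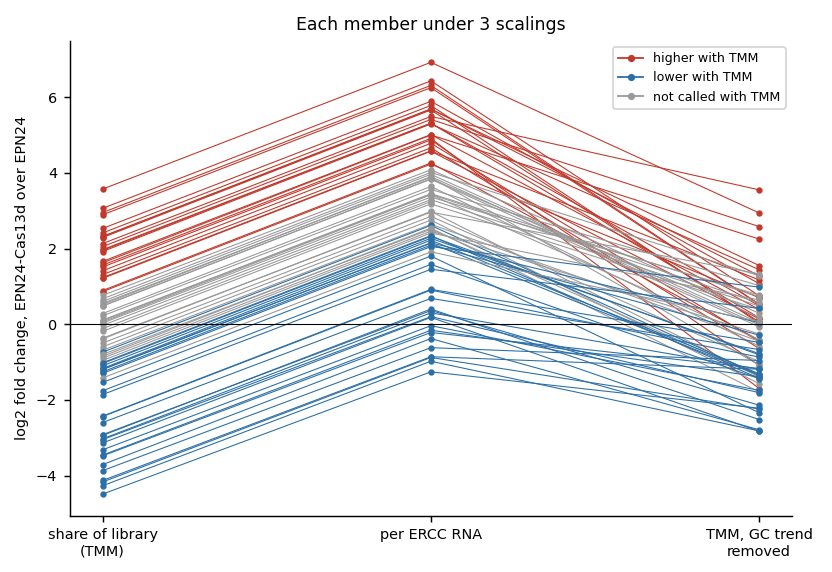
Log2 fold change of EPN24-Cas13d over EPN24 for each member, joined by a line, as a share of the library (TMM), per ERCC RNA, and as a share with the trend on GC content removed. Red lines are the 24 members called higher with TMM, blue the 29 called lower and grey the 26 not called. Most members lie above 0 per ERCC RNA (median 3.18), and red and blue lines draw together once the GC trend is removed.

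The difference between groups followed the GC content of the transcript. Over the 78 members with a GENCODE transcript, the log2 fold change (share of the library) had a Pearson r of 0.755 and a Spearman rho of 0.756 with transcript GC content. It was 0.739 over the 49 large subunit and 0.80 over the 29 small subunit members (Pearson), and 0.484 over 15424 tested protein-coding genes. These are descriptions across genes that share the same 4 libraries, and genes are not independent replicates. Median transcript GC was 57.8% (42.4% to 71.9%) in the 24 higher members, 43.1% (35.0% to 54.2%) in the 29 lower ones and 51.5% in those that did not pass. Of the 39 members at or under the median of 49.64% GC, 3 were higher and 24 lower (median log2 fold change -1.42). Of the 39 over it, 21 were higher and 5 lower (median 0.89). All tested genes split at the same GC content had medians of -2.28 and 0.98. Without the split, 32.6% of all genes tested were higher and 48.2% lower. The shares called on each side of that GC content are not given, so the members' counts are not set against them. With the third codon base alone the Pearson r was 0.663, while messenger RNA length gave -0.108, the length of the 3′ UTR -0.145 and coding length 0.154. The source of this relation was not tested.

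**Figure D3:**
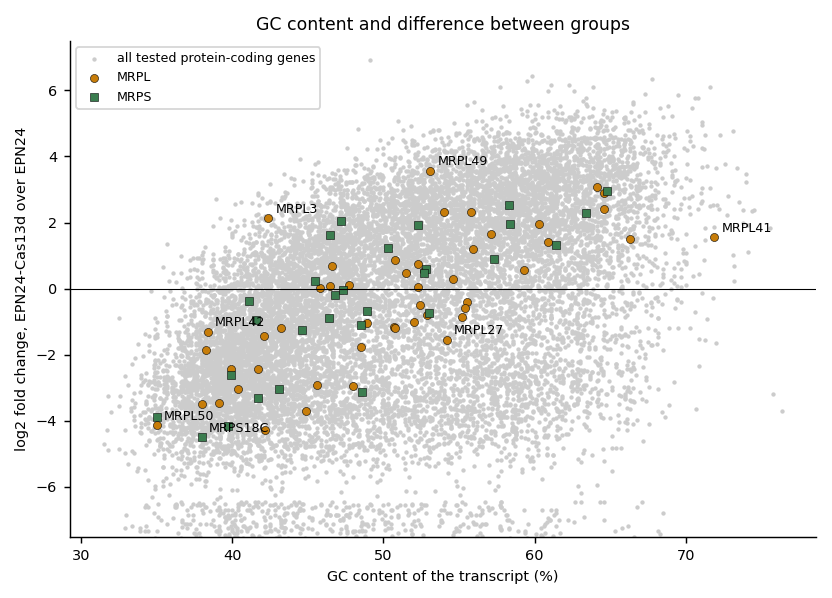
Log2 fold change of EPN24-Cas13d over EPN24 (share of the library) against transcript GC content in percent, for large subunit (orange circles) and small subunit (green squares) members over all tested protein-coding genes (grey; the axis ends at 7.5 in each direction, and a few grey points lie outside). The members run from lower left to upper right (Pearson r 0.755 over 78), with MRPL3 (42.4% GC, 2.13) above the others of its GC content.

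With the transcriptome-wide GC trend taken out, fewer members differed. Of the 78 with a transcript, 15 were then higher, 21 lower and 42 did not pass, against 29.3% higher and 38.9% lower among all 19924 genes so tested, and the median was -0.35. Among the 24 higher messages 12 stayed higher, 9 did not pass and 3 were lower, namely MRPL41 (-1.70), MRPL23 (-1.09) and MRPS2 (-0.64). MRPL12 went from 2.41 to 0.03, and MRPL49 kept 2.94. MRPL3, a counterpart of a core bacterial protein near the peptidyl transferase centre, read 124 and 135 CPM against 32.1 and 27.0 CPM and went from 2.13 to 3.55. MRPS25 (2.58) and MRPS27 (2.25) were the next highest, and MRPL3, MRPS27, MRPL41, MRPL22 and MRPL47 were singled out after their values were seen. Among the 29 lower messages 13 stayed lower, 15 did not pass and MRPL42 was higher (0.98).

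Depth and background set limits on the lower messages. In 10 members, all called lower, a library of EPN24-Cas13d had fewer than 3 counts, and in 23 members the level the filter asks for, 2.96 CPM, was not reached in both EPN24-Cas13d libraries. Those 23 entered the test through EPN24, and 20 of them were called lower and 0 higher. Among the 20 are MRPL13, MRPL18, MRPL22, MRPL39, MRPL44, MRPL47, MRPS18C, MRPS21 and MRPS36. Outside the members, GTPBP10, YBEY, MTIF3, SLIRP and CHCHD1 fell short of this level in the same way. Counts over the 361 olfactory receptor genes, taken as a measure of background, came to 1.84 and 1.44 per kb in the EPN24 libraries and 0.179 and 0.141 per kb in EPN24-Cas13d. In EPN24, 12 members lay within 3 times that density, of which 3 were called lower and 2 higher. The 2 higher were MRPS25 (2.23 times) and MRPS27 (2.79 times), and the lower include MRPS18C (2.47 times) and MRPS22 (2.13 times). With this background subtracted, 16 of 76 members were higher and 30 lower, beside 33.9% and 36.5% of all genes so tested. MRPS25 (1.93) and MRPS27 (1.30) then stayed higher and MRPS18C (-5.19) lower, while MRPS22 did not pass (-1.21, edgeR adjusted p = 0.0524). Overlap with other genes also moved with the result: 37 members share no exon base with another gene (6 higher, 17 lower, median -0.80) and 42 do (18 higher, 12 lower, median 0.37). Of all genes tested, which were not split by overlap, 32.6% were higher and 48.2% lower. Among single members, 40.2% of the exon bases of MRPS18C are also covered by ABRAXAS1 on the opposite strand and 37.8% of those of MRPS25 by NR2C2. The part of overlap in the result was not tested.

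The messages that act with the ribosome were looked at beside it. Of 5 ribosomal proteins with other symbols, AURKAIP1 (log2 fold change 2.07), GADD45GIP1 (1.32) and DAP3 (0.97) were higher, CHCHD1 (-2.97) was lower and PTCD3 (-0.14) did not pass. With the GC trend removed 2 were higher and 2 lower (median -0.46), and AURKAIP1 was among the lower (-0.74, edgeR adjusted p = 0.0105). The call of DAP3 was lost with total counts (0.41), the stricter filter (0.11) and background subtracted (0.19). That of GADD45GIP1 was lost with background subtracted (0.42) and with the GC trend removed (-0.46). The CHCHD1 value rests on 2 counts in each EPN24-Cas13d library against 12 and 6. Its call was lost without EPN24-Cas13d replicate 1, EPN24-Cas13d replicate 2 or EPN24 replicate 2 (edgeR adjusted p = 0.128, 0.117 and 0.0576), with the replicate block (0.0859), with no filter (0.0774) and in the DESeq2 Wald test (0.0557). Of 25 mitoribosome assembly factors 17 were higher and 7 lower, with a median of 2.21, beside 32.6% higher and 48.2% lower of all genes tested. With the GC trend removed 13 were higher and 1 lower, with a median of 1.01, beside 29.3% and 38.9% of all genes. DHX30, an RNA helicase needed for assembly, read 1423 and 1526 CPM against 87.0 and 77.2 CPM (log2 fold change 4.17, edgeR adjusted p = 1.99e-12). RCC1L, another assembly factor, was at 3.85, while the assembly GTPase GTPBP10 was at -3.76 and the endonuclease YBEY at -2.48. Of 16 translation factors 5 were higher and 5 lower, with a median of -0.16, beside 32.6% and 48.2% of all genes tested. With the GC trend removed 7 were higher and 2 lower, with a median of 0.93, beside 29.3% and 38.9% of all genes. TUFM, the mitochondrial elongation factor Tu, was at 3.46 and the translation activator TACO1 at 2.67, while the initiation factor MTIF3 was at -3.53 and SLIRP, which stabilizes mitochondrial messages, at -3.24.

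The mitochondrial ribosomal RNAs were lower as a share of the library, MT-RNR1 at -3.01 and MT-RNR2 at -3.84, and did not pass per ERCC RNA (0.36 and -0.49, edgeR adjusted p = 0.251 and 0.0601). Cytosolic ribosomal protein messages, the most similar set, had 23 of 83 tested higher and 48 lower (all genes tested: 32.6% and 48.2%), with a median of -0.68. Their summed share was 1.30 times higher in EPN24-Cas13d and their counts per ERCC RNA 19.2 times, beside 1.53 and 22.4 for the mitochondrial set, 5.29 and 77.8 for assembly factors and 1.86 and 27.2 for translation factors. These ratios were not tested against each other.

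**Figure D4:**
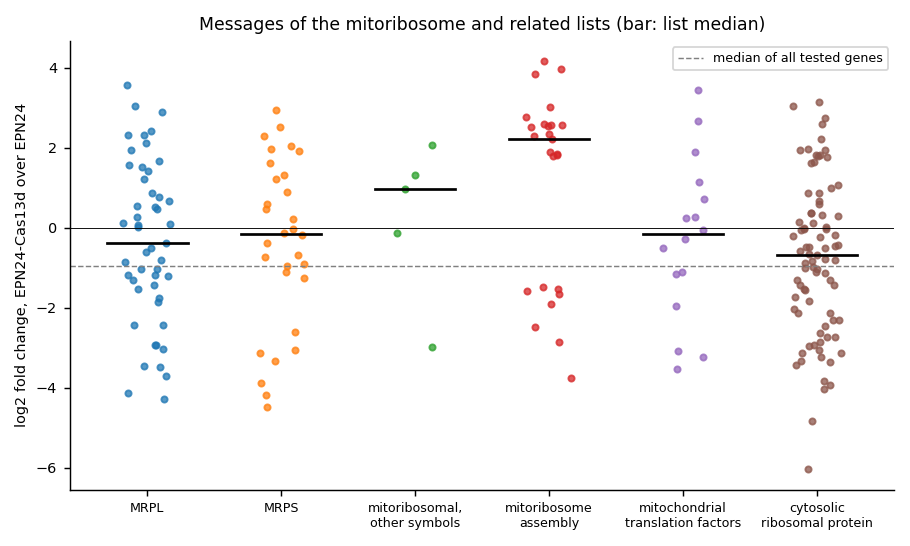
Log2 fold change of EPN24-Cas13d over EPN24 (share of the library) for single messages, 1 point each, of the large subunit, the small subunit, mitoribosomal proteins with other symbols, mitoribosome assembly factors, mitochondrial translation factors and cytosolic ribosomal proteins. Bars mark each list's median and the dashed line the median of all genes tested (-0.96). Assembly factors have the highest median (2.21, or 1.01 with the GC trend removed), and both subunits spread on either side of 0.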

How the data were processed

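Total RNA of supernatant was sequenced as 150-nt read pairs after 17 PCR cycles, per the labels' protocols, which name no molecular identifiers. Counting intervals therefore cover counting error only. The submitters' processing notes list STAR 2.7.10a, featureCounts 2.0.1, FastQC 0.11.9, DESeq2 1.36.0 and Trim Galore 0.6.7, with build GRCh38. Which annotation and strand setting were used, and how multi-mapping reads were treated, is not given in the sources used here, so reads of overlapping and antisense genes cannot be told apart.

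The authors deposited expected counts per gene with no normalization, of which 7.83% to 9.20% per library were not whole, and the gene length in bp. Of 61640 lines, 5 pieces of a single broken gene entry were left out, and 92 ERCC transcripts were kept for scaling alone. The authors' deposited DESeq2 table holds a mean normalized signal, log2 fold changes with standard errors, a Wald score and p-values. It supplied the symbols and the calls credited to it.

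After rounding, counts were tested with edgeR 4.0.16 in R 4.3.3 (filterByExpr, TMM without ERCC, robust quasi-likelihood test, Benjamini-Hochberg, threshold 0.05), without replicate block, on all genes, and the method was tested on simulated data. SE is the absolute log2 fold change over the square root of F. Transcript lengths and GC come from the best-ranked, then longest, GENCODE 29 transcript, found for 78 of 79 members, and the GC trend is a lowess curve (span 0.3). Gene coordinates were taken from the deposited counts table. Alternatives used DESeq2 1.42.0, limma 3.58.1, other scalings and filters, halved counts, subtracted background and each library left out.

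The members and lists were chosen with earlier results of these data known. Members are named by rule: per subunit prefix, the 5 called members at each end of the log2 fold change whose groups do not overlap and whose mean is 10 CPM or more, the 3 highest per kb in each group, all members not called, and 11 fixed members. MRPL3, MRPL22, MRPL41, MRPL47 and MRPS27 fall outside this rule. Members printed only at an end of a range, or for overlap or sequence, do too. From the other lists, the 2 smallest p in each direction are named, and the list of 5 is named whole. Alternatives for these genes were added after seeing the data.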

Additional observations from a re-analysis of the deposited data

How the results depend on the processing

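The number of large subunit messages called higher (14) became 38 with ERCC totals, 9 with background subtracted and 8 with the GC trend removed. Of all genes tested, 32.6% were higher with TMM, 58.4% with ERCC totals, 33.9% with background subtracted and 29.3% with the GC trend removed. The number called lower (19) became 0 with ERCC totals, 12 with no filter and 11 with the DESeq2 Wald test. Over the 20476 genes tested with TMM, 9871 were lower, beside 477 with ERCC totals, 8063 with no filter and 8078 with the DESeq2 Wald test. The large subunit median (-0.39) was -0.95 with total counts, 2.98 with ERCC totals, -0.04 with no filter, -0.67 with at least 10 counts and 10 CPM, -0.66 with background subtracted, -0.48 with the GC trend removed and -0.12 with the length trend removed. For the small subunit, the number called higher (10) became 23 with ERCC totals, and the number called lower (10) became 0 with ERCC totals, 6 with no filter and 5 with the GC trend removed. The small subunit median (-0.15) was -0.72 with total counts, 3.21 with ERCC totals, 0.20 with no filter, -0.26 with at least 10 counts and 10 CPM, -0.52 with counts halved, -0.32 with background subtracted and 0.15 with the length trend removed. A median counts as moved here when it shifts by more than the SD of its 4 values with a library left out. Leaving out each library gave 13 to 15 higher and 14 to 18 lower in the large subunit (median -0.42 to -0.23), and 9 to 10 higher and 7 to 9 lower in the small subunit (median -0.28 to -0.05). A group left with a lone library was assumed to vary like the other group. Over shared genes the median of all genes tested shifted by 3.34 with ERCC totals, -0.57 with total counts, 0.36 with no filter, -0.86 with at least 10 counts and 10 CPM, -0.55 with background subtracted and -0.39 with counts halved.

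Among members the text names with a log2 fold change, the following changed sign and were called before or after (over all 79 members this held for 33 with ERCC totals, 10 with the GC trend removed and 1 with at least 10 counts and 10 CPM, while 33, 18 and 9 changed sign in all). With the GC trend removed these were MRPL41 (-1.70), MRPL23 (-1.09), MRPS2 (-0.64), MRPS18A (-0.42), MRPL40 (-1.08), MRPS35 (1.33) and MRPL42 (0.98), and with at least 10 counts and 10 CPM MRPL15 (-0.77). With ERCC totals they were MRPS17 (3.29), MRPS5 ENSG00000289685 (3.24), MRPS16 (3.18), MRPL14 (2.98), MRPS35 (2.96), MRPL46 (2.85), MRPL2 (2.75), MRPS6 (2.64), MRPS15 (2.61), MRPL34 (2.54), MRPL36 (2.51), MRPS30 (2.46), MRPS10 (2.41), MRPS22 (2.27), MRPS23 (2.09), MRPL42 (2.05), MRPL33 (1.91), MRPL39 (0.90), MRPL18 (0.40), MRPL22 (0.30) and MRPS21 (0.18). Of the named genes outside the members, AURKAIP1 (-0.74), GADD45GIP1 (-0.46) and PTCD3 (1.13) changed sign with the GC trend removed, and PTCD3 (3.23), YBEY (0.87), CHCHD1 (0.27) and SLIRP (0.10) with ERCC totals. With ERCC totals these genes moved by about as much as the median of all genes tested (3.34), so those sign changes come from the change of scale. The cause of the other sign changes was not tested.

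Same-numbered libraries did not deviate together (correlation -0.00523 over 11622 genes), so no pairing was seen. Whether they shared a batch or handling is not in the labels. With the replicate number as a block, 24 members were higher and 27 lower (MRPL 14 and 19, MRPS 10 and 8). Of all 20476 genes tested, 6545 were then higher and 8496 lower. Of the members named with a value MRPS15 alone lost its call (edgeR adjusted p = 0.0753), as did CHCHD1 among the other genes (edgeR adjusted p = 0.0859).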
